A study of Homo sapiens with 6 samples.

Results

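The genes described here encode the enzymes and transporters of central carbon metabolism: glucose uptake, glycolysis, lactate export, the entry of pyruvate into mitochondria, the pentose phosphate pathway and the tricarboxylic acid (TCA) cycle. They are a list of 42 gene symbols, each matched to 1 Ensembl identifier among the 60664 genes of the deposited counts, and they were chosen by function, with no threshold on their values. RNA-seq was performed in SiHa PR cells, the parental counterpart of a SiHa subline selected for lymph node metastasis, SiHa being an established line of human cervical squamous carcinoma. Both groups are this line, with no other treatment named: 3 control samples, named only SiHa PR in the labels, and 3 samples named SiHa PR P4HA3, in which P4HA3 was overexpressed, per the study's methods, from a cDNA in a lentiviral pCDH vector. Whether the control samples carried the empty vector is not stated in the labels. The labels do not say whether the 3 samples of a group were separate cultures, so p-values measure the spread between these samples, which may be technical.

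P4HA3 is an alpha subunit of collagen prolyl 4-hydroxylase, an enzyme that consumes oxygen and the TCA cycle intermediate 2-oxoglutarate and releases succinate. Glycolysis splits glucose into pyruvate in the cytosol, and tumour cells commonly reduce much of that pyruvate to lactate and export it. The pentose phosphate pathway branches off glucose 6-phosphate and supplies NADPH and ribose, and the TCA cycle oxidizes acetyl-CoA in mitochondria and provides citrate for lipid synthesis and histone acetylation. Many glycolytic genes are induced by the hypoxia-inducible factor HIF-1, which binds a short promoter element, the hypoxia response element.

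Total counts ran from 21773488 to 24939948 per sample. P4HA3 was at 3.53, 2.91 and 3.80 CPM (counts scaled to library size, normalized by edgeR's TMM method) in control replicates 1, 2 and 3 and at 1934, 1991 and 1936 CPM with overexpression, which matches the labels. The epithelial markers KRT8, KRT18 and KRT17 were abundant and made up nearly all of the sum over 7 epithelial markers. This sum ran from 7398 to 8517 CPM in control samples and from 6257 to 7298 CPM with overexpression. The other epithelial markers were low over the samples of both groups. CDH1 ran from 8.85 to 16.6 CPM, EPCAM from 4.98 to 6.13 CPM and KRT19 from 0.623 to 1.22 CPM, and KRT5 had 3 or 4 counts. Of 7 smooth muscle markers, checked because the deposited growth protocol describes uterine muscle, 5 were under 1 CPM in every sample, MYH11, DES and CNN1 among them. The smooth muscle sum ran from 16.3 to 18.8 CPM in control samples and from 24.8 to 27.1 CPM with overexpression. TAGLN, an actin-binding protein gene, carried this difference (log2 fold change 0.96, edgeR adjusted p = 0.000436), while ACTA2, smooth muscle actin, was at 0.04 (edgeR adjusted p = 0.832). Among the epithelial markers CDH1, which encodes E-cadherin, fell by 0.77 on the log2 scale (edgeR adjusted p = 0.00114). KRT18 and KRT17 were also called lower, with log2 fold changes of -0.40 and -0.32 (adjusted p = 0.0108 and 0.0310, edgeR). KRT8, KRT19 and EPCAM were not called, and KRT5 was not tested. In bulk RNA, a change in the number of cells of a kind and a change in RNA per cell cannot be told apart.

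Of 18 tested genes of glucose uptake and glycolysis, 8 fell with P4HA3 overexpression and 0 rose, while of 12 TCA cycle genes 2 fell and 1 rose. Of the 42 genes, 41 passed the filter on low counts and 1, SLC2A3, did not. With p-values from the quasi-likelihood test of edgeR, adjusted after Benjamini and Hochberg over all 15130 genes tested, and a threshold of 0.05, 11 of the 41 were lower, 2 were higher and 28 were not called. The share called was 31.7%, against 20.8% of all genes tested and 28.7% of those averaging 100 CPM or more. The lower calls lay above their background of 11.4%, and the higher calls below theirs of 9.36%. Of the 29 listed genes averaging 100 CPM or more, 7 were lower and 2 higher (31% called). Among all genes at that level, 14% were lower and 14.7% higher. The median log2 fold change was -0.16 over the 41 genes and 0.01 over all genes tested, and 31 of the 41 (75.6%) had a negative value against 49.3% of all genes. The samples of the groups did not overlap in 20 of the 41 genes (48.8%), 16 lower and 4 higher, against backgrounds of 40.1% in either direction, 20.4% lower and 19.7% higher.

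**Figure D1:**
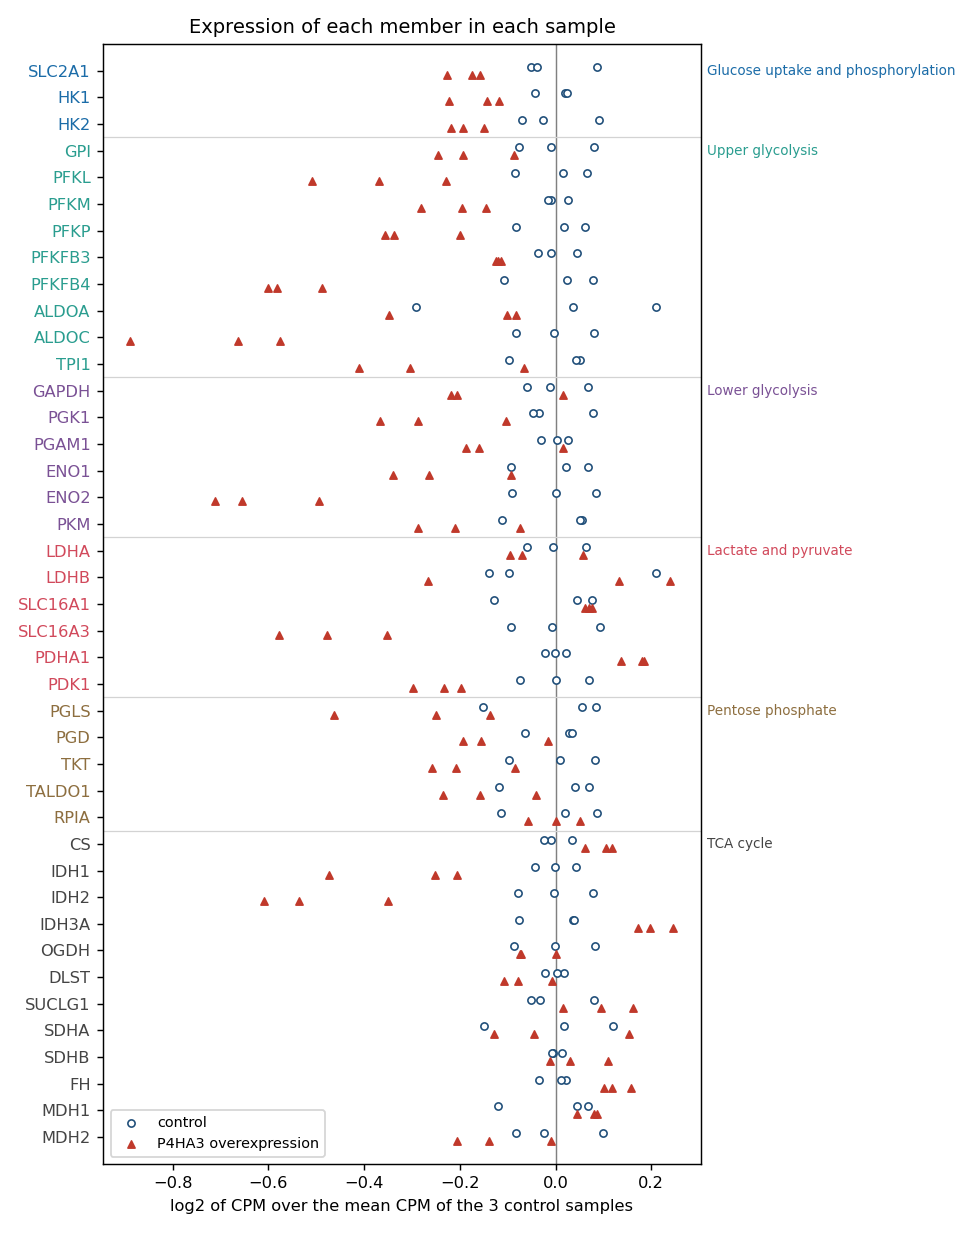
Each point is 1 sample of 1 gene, as the log2 of its CPM over the mean CPM of the 3 control samples, with genes grouped by pathway step (coloured names) and the 41 genes that passed the filter shown. Open circles are control samples and triangles P4HA3 overexpression. ALDOC, ENO2, PFKFB4, IDH2 and SLC16A3 lie farthest left, while PDHA1, IDH3A, CS and FH lie to the right of every control sample.

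A trend on GC content runs through these libraries and bears on every value below. The log2 fold change of all genes fell with the GC content of the transcript (Spearman's rho -0.58 over 15107 genes, which are not independent), and the same rho was -0.54 over the 41 genes described here. Their median GC content was 52.7%, and 65.9% of them lay above the median of all genes, which was 49.3%. The trend also separated samples within a group. When each gene's deviation from its group's mean was set against GC content, rho was negative in control replicate 3 (-0.52) and in the second overexpressing sample (-0.48), and positive in control replicate 2 (0.38) and in the first overexpressing sample (0.45). Relative to the control mean, the median log2 level of the 41 genes was -0.08 in overexpression replicate 1, -0.16 in replicate 3 and -0.22 in replicate 2, and it was -0.05 in control replicate 3. The fold changes are therefore also given with an offset in the same test that removes, library by library, the trend on GC content and transcript length. The offset removes any part of a difference that follows GC content or length, whatever its origin. CPM values, shares between isozymes, counts of groups without overlap and medians by library carry no such correction. With it, 10 of the 41 genes were lower (24.4%, against 7.96% of all genes) and 0 higher (against 10.6%, and 18.6% of all genes in either direction), 8 of the 10 being genes also called lower without it. The median rose from -0.16 to -0.04, and 70.7% of the genes were still negative against 46.2% of all genes. Of the 18 genes of glucose uptake and glycolysis, 6 were lower and 0 higher with the offset, and of the 12 TCA cycle genes 2 were lower and 0 higher. The median GC content was 54.3% in those 18 genes and 47.6% in those 12.

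**Figure D2:**
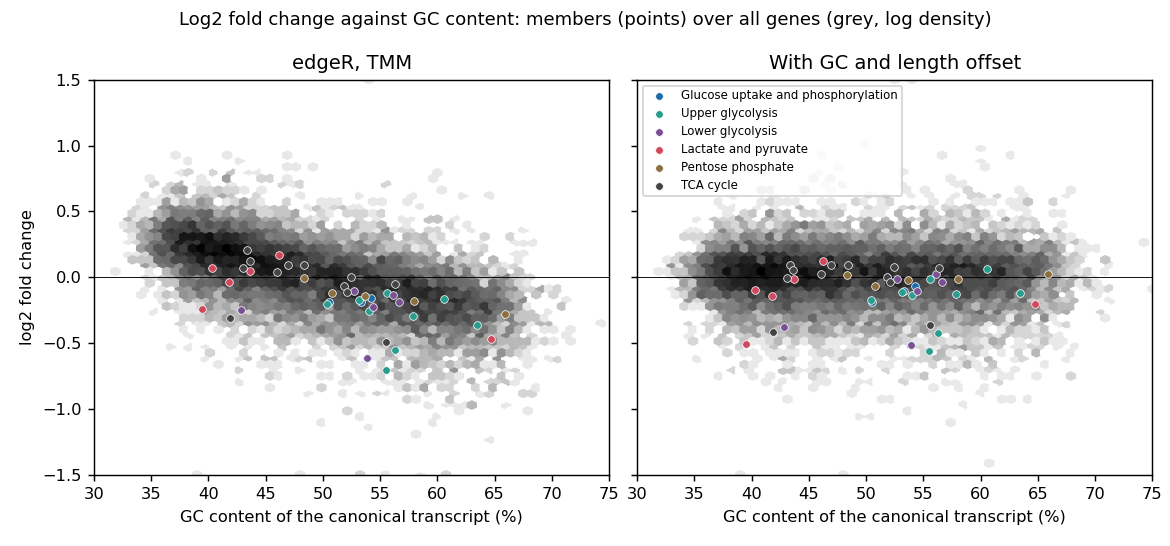
Log2 fold change (P4HA3 overexpression against control) against the GC content of the canonical transcript, for all genes (grey hexagons, darker where genes are denser on a log scale, values beyond ±1.5 drawn at the edge) and for the genes described here (points coloured by step). The left panel shows the falling trend (rho -0.58 over all genes) and the right panel the same values with the offset (rho -0.01), where ALDOC, ENO2, PDK1, PFKFB4 and IDH1 lie lowest, between -0.56 and -0.42.

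Of the 13 genes called, 5 were called lower in all 16 alternative analyses, which changed the tool, the normalization, the filter, the replicate block, the GC and length offset or the samples used. They are ALDOC, ENO2, PFKFB4, IDH2 and SLC16A3. Sequence before a RefSeq start of ALDOC, ENO2 and PFKFB4 is shown because these were the 3 largest falls. Another reason is that ALDOC and PFKFB4 are widely known HIF-1 targets. The stretches come from RefSeq (GRCh38.p14), lie before a RefSeq start and are written in the direction of the gene. In all 3 genes this start is inside the span of the gene in GENCODE. The ENO2 and PFKFB4 stretches themselves also lie inside that span, and the ALDOC stretch lies outside it. Capitals mark the core of the hypoxia response element, ACGTG or GCGTG, on either strand. The ENO2 and PFKFB4 stretches were cut to 30 bases around the first such core before the start, so a core in them was certain. The ALDOC stretch lies at chr17:28576949-28577145 (minus strand), the ENO2 stretch at chr12:6914450-6914479 (plus strand) and the PFKFB4 stretch at chr3:48556952-48556981 (minus strand).
ALDOC: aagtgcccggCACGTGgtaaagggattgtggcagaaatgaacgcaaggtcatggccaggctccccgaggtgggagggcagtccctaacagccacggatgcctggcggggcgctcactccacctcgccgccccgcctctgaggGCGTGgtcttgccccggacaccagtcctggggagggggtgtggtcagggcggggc
ENO2: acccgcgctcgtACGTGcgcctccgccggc
PFKFB4: tgagttgggcatGCGTGgtcggaggccggg

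In the ALDOC stretch the palindrome CACGTG holds ACGTG once on each strand. Over the RefSeq windows of 300 bases (250 before and 50 after a start), 39 of the 42 genes had 67 windows. ACGTG stood on either strand in 29.9% of these against 21.4% of all 35116 windows, and GCGTG in 44.8% against 36.5%. At least 1 of these cores stood in 62.7% against 48.4%. In the 21 windows of genes widely known as HIF-1 targets, ACGTG stood in 52.4% and GCGTG in 57.1%. Several windows can belong to 1 gene, and a match is a description of letters, not of a bound site. The windows were not matched for GC content, and the shares were not tested. Genes can be known as HIF-1 targets because of such cores, so a higher share in their windows tells nothing about P4HA3 overexpression.

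At the entry of glucose, 1 of 3 tested genes was called. SLC2A1 encodes GLUT1, the main glucose transporter of many tumour cells. It was at 217, 239 and 219 CPM in the control samples and 202, 193 and 199.6 CPM with overexpression, so every overexpressing sample was below every control sample. Its log2 fold change was -0.19, with a standard error (SE) of 0.06 and an edgeR adjusted p of 0.0437, and -0.11 with the offset (adjusted p = 0.0996), where it was not called. HK1, the hexokinase that traps glucose as glucose 6-phosphate in most tissues, was at 484 ± 12.6 CPM in control cells and 434 ± 16.5 CPM with overexpression (SD, n = 3), with a log2 fold change of -0.16 (adjusted p = 0.0648, edgeR) and of -0.07 with the offset. HK2, the isoform typical of tumours and muscle, had a log2 fold change of -0.19 (adjusted p = 0.0613, edgeR) and was called with the offset (adjusted p = 0.0241, edgeR), with and without the replicate block, and in no other alternative. Per kilobase of transcript, HK1 made up 92.7% ± 0.573 of the hexokinase signal of both genes in control cells and 92.9% ± 0.406 with overexpression (SD, n = 3), so the balance between them overlapped between the groups. SLC2A3, which encodes the neuronal and high-affinity transporter GLUT3, had between 2 and 6 counts in each sample and was not tested.

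The phosphofructokinase step was lower in all 3 of its genes. Phosphofructokinase commits fructose 6-phosphate to glycolysis, and PFKL, PFKM and PFKP encode its liver, muscle and platelet subunits. PFKL was at 427, 442 and 398 CPM in control samples and 360.5, 297 and 327 CPM with overexpression, a log2 fold change of -0.36 (SE 0.08, edgeR adjusted p = 0.0116). PFKP was at 292, 283 and 264 CPM in control samples and 244, 219 and 222 CPM with overexpression, a log2 fold change of -0.30 (SE 0.06, edgeR adjusted p = 0.0129). In both genes the groups did not overlap. PFKL has a GC content of 63.4% and PFKP of 57.8%, and with the offset their log2 fold changes were -0.12 and -0.13 and neither was called (adjusted p = 0.0764 and 0.0512, edgeR). PFKM, at a GC content of 50.4%, was at 146, 145 and 149.5 CPM in control samples and 133, 121 and 128 CPM with overexpression. Its log2 fold change of -0.21 (SE 0.06, edgeR adjusted p = 0.0277) was -0.17 with the offset, where it was still called (adjusted p = 0.014, edgeR). Per kilobase, PFKL held 48.5% ± 0.891 of the signal of the 3 genes in control cells and 46.8% ± 1.18 with overexpression (SD, n = 3).

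PFKFB4 fell and PFKFB3 was not called. Both encode bifunctional enzymes that set the level of fructose 2,6-bisphosphate, the main activator of phosphofructokinase. PFKFB4 (ENSG00000114268, chromosome 3, 48517684 to 48562015 of GRCh38) was at 18.7, 18.02 and 16.5 CPM in control samples and at 11.9, 11.7 and 12.7 CPM with overexpression. The groups lay well apart, and expression fell by 31.9%, a log2 fold change of -0.55 (SE 0.09, edgeR adjusted p = 0.00382) and of -0.43 with the offset (adjusted p = 0.00259, edgeR). PFKFB3 was at 71.9 ± 2.08 CPM in control cells and 66.2 ± 0.266 CPM with overexpression (SD, n = 3), with a log2 fold change of -0.12 (adjusted p = 0.137, edgeR) and of -0.02 with the offset. The share of PFKFB4 in the summed signal per kilobase of these 2 genes went from 24.0% ± 1.36 to 18.9% ± 0.667 (SD, n = 3), and the samples of the groups did not overlap.

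ALDOC gave the largest fall of the 41 genes. It encodes aldolase C, the brain-type form of the enzyme that splits fructose 1,6-bisphosphate. ALDOC (ENSG00000109107, chromosome 17, 28573115 to 28576948 of GRCh38) was at 21.8, 24.4 and 23.0 CPM in control samples and 15.5, 12.5 and 14.5 CPM with overexpression. Expression fell by 38.5%, a log2 fold change of -0.70 (SE 0.10, edgeR adjusted p = 0.00217), and the fold change was -0.56 with the offset (adjusted p = 0.000549, edgeR). The muscle-type aldolase, ALDOA, had only 53 to 75 counts per sample. Exons of another protein-coding gene on the same strand, ENSG00000285043, cover 89.8% of its canonical transcript, and how reads shared by 2 genes were counted is not stated, so the level of ALDOA cannot be read from this table. The resulting log2 fold change was -0.16 (SE 0.16, edgeR adjusted p = 0.484).

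The remaining genes of upper glycolysis were abundant and were not called. GPI, glucose 6-phosphate isomerase, was at 835 ± 45.9 CPM in control cells and 740.0 ± 41.9 CPM with overexpression (SD, n = 3), with a log2 fold change of -0.17 (adjusted p = 0.0854, edgeR) and of -0.11 with the offset. TPI1, triosephosphate isomerase, was at 1516, 1507 and 1368 CPM in control samples and 1399, 1101 and 1185 CPM with overexpression, so overexpression replicate 1 lay within the control range. This gave a log2 fold change of -0.25 (SE 0.09, edgeR adjusted p = 0.0686), and -0.13 with the offset.

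**Figure D3:**
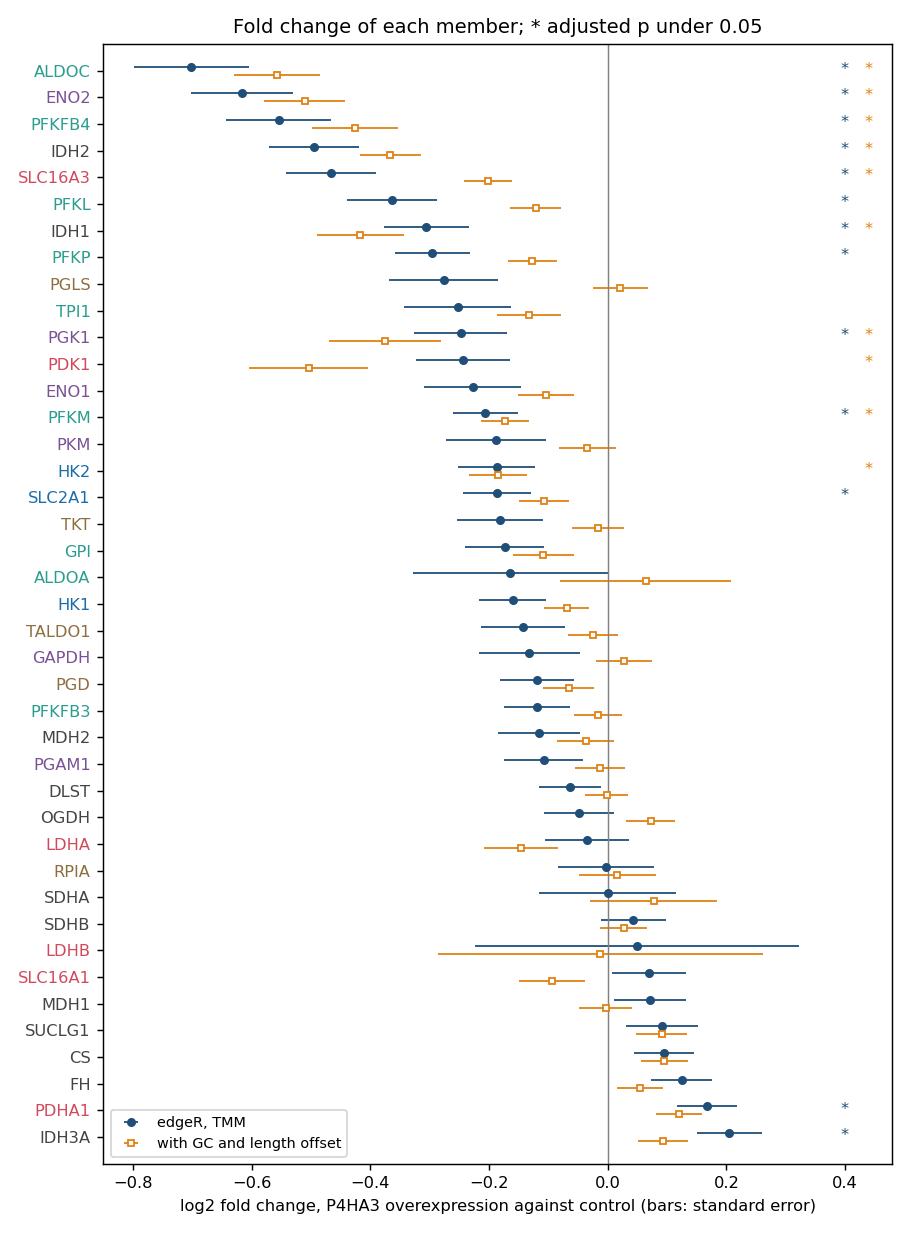
Log2 fold change of each tested gene with its standard error (bars), from edgeR with TMM normalization (filled circles) and with the GC and length offset (open squares). Blue and orange asterisks mark an adjusted p under 0.05 in the test without and with the offset. The values run from -0.70 for ALDOC to 0.21 for IDH3A, and most move toward zero with the offset, except those of low-GC genes such as PGK1, PDK1, IDH1 and LDHA, which move down.

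In lower glycolysis, PGK1 and ENO2 fell, and the most abundant enzymes were not called. ENO2 encodes the neuronal form of enolase, which makes phosphoenolpyruvate. ENO2 (ENSG00000111674, chromosome 12, 6913745 to 6923698 of GRCh38) was at 27.1, 30.6 and 28.9 CPM in control samples and 20.5, 18.4 and 17.7 CPM with overexpression. It fell by 34.8%, a log2 fold change of -0.62 (SE 0.09, edgeR adjusted p = 0.00223), and of -0.51 with the offset (adjusted p = 0.000637, edgeR). ENO1, the ubiquitous enolase, was at 4009, 4141 and 3703 CPM in control samples and 3707, 3124 and 3292 CPM with overexpression, where overexpression replicate 1 slightly exceeded the lowest control sample. This gave a log2 fold change of -0.23 (SE 0.08, edgeR adjusted p = 0.0721), and -0.10 with the offset. Per kilobase, ENO2 made up 0.566% ± 0.0403 of both enolases in control cells and 0.432% ± 0.0201 with overexpression (SD, n = 3), without overlap between the groups.

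PGK1, phosphoglycerate kinase, makes the first ATP of the pathway and is an X-linked HIF-1 target. It was at 1692, 1564 and 1550 CPM in control samples and 1492, 1243 and 1312 CPM with overexpression, and every overexpressing sample was below every control sample. Its log2 fold change was -0.25 (SE 0.08, edgeR adjusted p = 0.0486), just under the threshold. PGK1 has a GC content of 42.8%, and with the offset its log2 fold change was -0.38 (adjusted p = 0.0186, edgeR).

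GAPDH, PKM and PGAM1 were not called. GAPDH, which is often used as a reference gene, was at 7468, 7897 and 7224 CPM in control samples and 7615, 6470 and 6531 CPM with overexpression, with overlapping groups. The resulting log2 fold change was -0.13 (SE 0.09, edgeR adjusted p = 0.274), and 0.03 with the offset. PKM, pyruvate kinase of muscle and tumours, came after GAPDH in level per kilobase (3405 against 5860 CPM per kilobase in control cells), at 7848 ± 507 CPM in control cells and 6889 ± 521 CPM with overexpression (SD, n = 3). This gave a log2 fold change of -0.19 (adjusted p = 0.127, edgeR) and -0.03 with the offset, and gene counts do not separate its PKM1 and PKM2 splice forms. PGAM1, phosphoglycerate mutase, had a log2 fold change of -0.11 (adjusted p = 0.255, edgeR) and of -0.01 with the offset. GAPDH and PGAM1 have 65 and 13 pseudogenes named after them in GENCODE, so reads of these genes can match elsewhere, and the treatment of such reads is not stated.

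At the fate of pyruvate, the lactate exporter SLC16A3 fell while LDHA was not called. LDHA encodes the muscle-type subunit of lactate dehydrogenase, which reduces pyruvate to lactate. It was at 2626, 2412 and 2505 CPM in control samples and 2617, 2352 and 2393 CPM with overexpression. Overexpression replicate 1 lay within the control range, and replicates 2 and 3 lay below it. This gave a log2 fold change of -0.03 (SE 0.07, edgeR adjusted p = 0.738), and -0.15 with the offset (adjusted p = 0.124, edgeR). LDHA was called lower in 1 of 16 alternatives, the replicate block with the offset (-0.15, adjusted p = 0.0177, edgeR). LDHB, the heart-type subunit, had only 11 to 17 counts in each sample. A protein-coding gene on the same strand, ENSG00000285854, covers 76.5% of its canonical transcript, so this low count cannot be read as absence of the RNA.

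SLC16A3 encodes MCT4, a monocarboxylate transporter that exports lactate from glycolytic cells. SLC16A3 (ENSG00000141526, chromosome 17, 82217934 to 82261129 of GRCh38) was at 1022, 1096 and 963 CPM in control samples and 805, 688 and 737 CPM with overexpression. It fell by 27.6%, a log2 fold change of -0.47 (SE 0.08, edgeR adjusted p = 0.00411). With a GC content of 64.7% it is among the richest of the list, and with the offset the log2 fold change was -0.20, still called (adjusted p = 0.00665, edgeR). SLC16A1, which encodes MCT1, was at 187, 166 and 192 CPM in control samples and 189.6, 191 and 192 CPM with overexpression. Its log2 fold change was 0.07 (SE 0.06, edgeR adjusted p = 0.431) and turned to -0.09 with the offset. The share of SLC16A3 in the signal per kilobase of both transporters went from 89.0% ± 1.33 to 84.9% ± 1.05 (SD, n = 3), without overlap between the groups.

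PDHA1 was higher and PDK1 was lower in every sample, though PDK1 narrowly missed the threshold. PDHA1 encodes the catalytic subunit of pyruvate dehydrogenase, which turns pyruvate into acetyl-CoA, and PDK1 encodes a kinase that switches it off. PDHA1 was at 135, 133 and 137 CPM in control samples and 153, 149 and 154 CPM with overexpression. The log2 fold change was 0.17 (SE 0.05, edgeR adjusted p = 0.0401), and 0.12 with the offset, where it was not called (adjusted p = 0.0507, edgeR). PDK1 was at 20.8, 19.8 and 21.8 CPM in control samples and 17.7, 18.1 and 16.9 CPM with overexpression, a log2 fold change of -0.24 (SE 0.08, edgeR adjusted p = 0.0535). PDK1 has the lowest GC content of the tested genes, 39.5%, and a canonical transcript of 14072 bases, and with the offset its log2 fold change was -0.50 (adjusted p = 0.00613, edgeR).

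**Figure D4:**
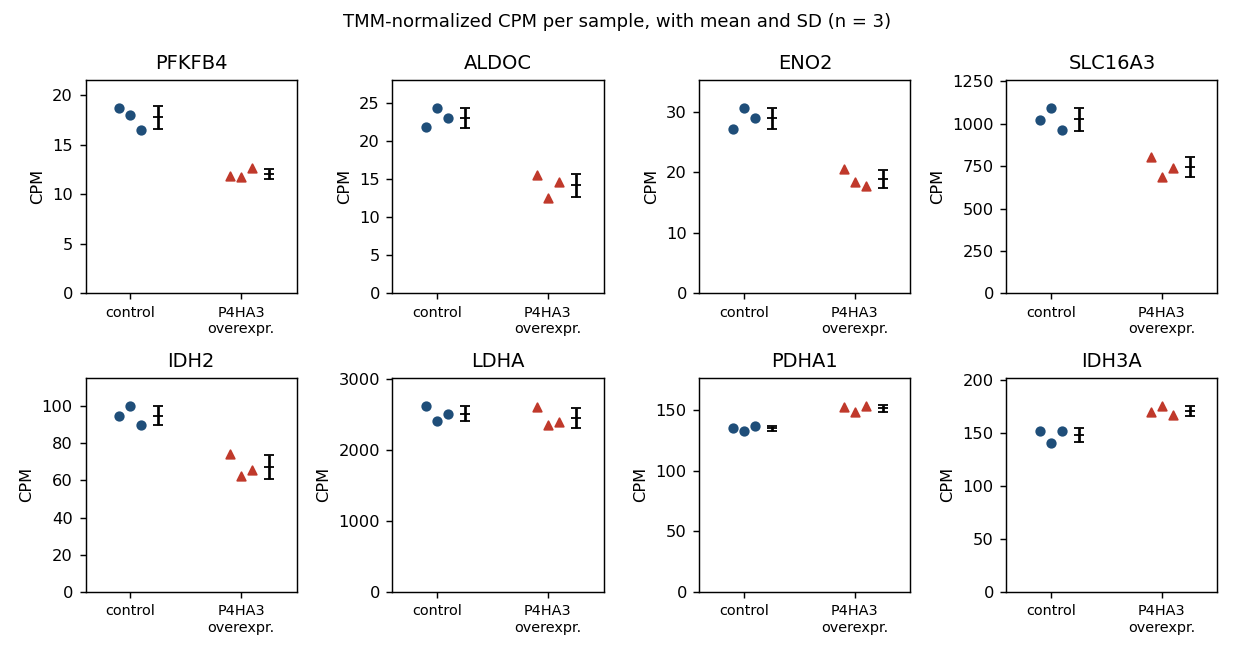
TMM-normalized CPM of 8 genes in each of the 3 control samples (circles) and the 3 P4HA3 overexpression samples (triangles), with the mean and SD beside them and each axis starting at 0. PFKFB4, ALDOC, ENO2, SLC16A3 and IDH2 are lower without overlap, LDHA overlaps, and PDHA1 and IDH3A are higher without overlap.

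No gene of the pentose phosphate pathway was called among the 5 of the list, and all 5 log2 fold changes were negative, between -0.28 and -0.0024. At an unadjusted p under 0.05 edgeR gave 2 of the 5, PGLS and TKT, beside 5854 of all 15130 genes, a like share, and DESeq2 called 1, PGLS (adjusted p = 0.0331). PGLS, 6-phosphogluconolactonase, had the largest, -0.28 (SE 0.09, edgeR adjusted p = 0.0565), and the highest GC content of the tested genes, 65.9%. With the offset it was 0.02. PGD, which makes NADPH and ribulose 5-phosphate, was at 225 ± 8.38 CPM in control cells and 207 ± 13.8 CPM with overexpression (SD, n = 3), with a log2 fold change of -0.12 (adjusted p = 0.181, edgeR) and of -0.07 with the offset. The enzymes of the non-oxidative branch, TKT and TALDO1, had log2 fold changes of -0.18 and -0.14 (adjusted p = 0.0924 and 0.161, edgeR) and -0.02 each with the offset. RPIA, ribose 5-phosphate isomerase, was at 23.2 ± 1.62 CPM in control cells and 23.1 ± 0.864 CPM with overexpression (SD, n = 3).

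In the TCA cycle, the NADP-dependent isocitrate dehydrogenases fell, whereas of the NAD-dependent enzyme only the subunit IDH3A was higher. IDH1 works in the cytosol and IDH2 in mitochondria, and both interconvert isocitrate and 2-oxoglutarate with NADPH. IDH2 (ENSG00000182054, chromosome 15, 90083045 to 90102477 of GRCh38) was at 94.6, 100.2 and 89.8 CPM in control samples and 74.4, 62.2 and 65.4 CPM with overexpression. It fell by 29.0%, a log2 fold change of -0.49 (SE 0.08, edgeR adjusted p = 0.00317), and of -0.37 with the offset (adjusted p = 0.00082, edgeR). IDH1 (ENSG00000138413, chromosome 2, 208236229 to 208266074 of GRCh38) was at 219, 206 and 212 CPM in control samples and 178, 153 and 184 CPM with overexpression. The resulting log2 fold change was -0.31 (SE 0.07, edgeR adjusted p = 0.0174), and -0.42 with the offset (adjusted p = 0.00298, edgeR), the GC content of IDH1 being 41.8%.

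IDH3A encodes the catalytic subunit of the NAD-dependent isocitrate dehydrogenase of the cycle proper. It was at 152, 140.4 and 152 CPM in control samples and 169.8, 176 and 167 CPM with overexpression, a log2 fold change of 0.21 (SE 0.06, edgeR adjusted p = 0.0285). With the offset it was 0.09 and not called (adjusted p = 0.154, edgeR). The other subunits of that enzyme, IDH3B and IDH3G, had log2 fold changes of -0.14 each (adjusted p = 0.227 and 0.262, edgeR). With the offset they were -0.01 and 0.06, and neither was called either way. Exons of ACSBG1 on the other strand cover 63.9% of the canonical IDH3A transcript, and ACSBG1 itself was too low to be tested.

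The other enzymes of the cycle were not called. CS, citrate synthase, and FH, fumarase, were higher without overlap between the groups, with log2 fold changes of 0.10 and 0.13 (adjusted p = 0.191 and 0.102, edgeR) and of 0.10 and 0.05 with the offset. SUCLG1, a subunit of succinyl-CoA synthetase, SDHB, the iron-sulphur subunit of succinate dehydrogenase, and the cytosolic malate dehydrogenase MDH1 had log2 fold changes of 0.09, 0.04 and 0.07, and of 0.09, 0.03 and -0.0034 with the offset. OGDH and DLST, subunits of the 2-oxoglutarate dehydrogenase complex, were at -0.05 and -0.06 (0.07 and -0.0014 with the offset), and mitochondrial MDH2 was at -0.11 (-0.04 with the offset). SDHA had 173 to 229 counts per sample and a log2 fold change of 0.00 (SE 0.12), or 0.08 with the offset. A protein-coding gene on its strand, ENSG00000286001, covers 69.4% of its canonical transcript, so the level of SDHA is uncertain. Over the 12 genes of the cycle, the median log2 fold change was 0.02 without and 0.04 with the offset, and 7 were positive and 5 negative. Over the 18 tested genes of glucose uptake and glycolysis it was -0.20 without and -0.11 with the offset, and all 18 were negative without the offset.

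By library, the median of glycolytic steps was lowest in P4HA3 overexpression replicate 2 and highest in replicate 1. For upper glycolysis it was -0.15, -0.35 and -0.30 in overexpression replicates 1, 2 and 3, relative to the control mean on the log2 scale, and between -0.08 and 0.05 in control samples. For lower glycolysis it was -0.08, -0.31 and -0.23 with overexpression and between -0.05 and 0.06 in control samples. For the TCA cycle it was 0.05, -0.01 and 0.02 with overexpression and between -0.02 and 0.02 in control samples, so the overexpressing samples lay around the controls.

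The 12 genes widely known as HIF-1 targets were also read together. Of the 11 tested, 5 were called lower (SLC2A1, PFKFB4, ALDOC, PGK1 and SLC16A3) and 0 higher, and all 11 log2 fold changes were negative with a median of -0.23. Over all genes tested, 11.4% were called lower and 9.36% higher, and 7.96% and 10.6% with the offset. With the offset, 6 were called lower, with a median of -0.19. Of the other 30 genes, 6 were called lower and 2 higher, with a median of -0.12 without and -0.02 with the offset. These 30 genes were not checked for control by HIF-1 and can include further targets. The difference between these sets was not tested. In the wider pathway list, HIF1A itself had a log2 fold change of 0.11 (adjusted p = 0.486, edgeR), which turned to -0.08 with the offset (adjusted p = 0.359, edgeR). RNA counts do not measure HIF-1 protein. Of the 12 regulators in that list, 2 were called lower, MYC and ESRRA, and 0 higher. Their log2 fold changes were -0.21 and -0.42 (adjusted p = 0.0364 and 0.00849, edgeR). With the offset they were -0.21 and -0.16 (adjusted p = 0.0131 and 0.0376, edgeR), and 4 regulators were called lower.

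A wider list of 85 other genes of the same pathways and their regulators was also read. Of the 71 tested, 14 were called lower and 8 higher, with a median log2 fold change of -0.05, and with the offset 12 were called lower and 4 higher. The background over all genes was 11.4% lower and 9.36% higher, and 7.96% and 10.6% with the offset, so the 8 higher calls were near it. Among those of at least 1 CPM, LDHD, PC and SLC16A8 had the largest falls, and SUCLA2 and DLD were among the largest rises. PC encodes pyruvate carboxylase, which refills the cycle by making oxaloacetate from pyruvate. It was at 276, 275 and 245 CPM in control samples and 181, 148 and 178 CPM with overexpression. The log2 fold change of PC was -0.65 (SE 0.08, edgeR adjusted p = 0.00135) and -0.46 with the offset (adjusted p = 0.000542, edgeR). LDHD, D-lactate dehydrogenase, had a log2 fold change of -0.97 on 14 to 41 counts per sample (adjusted p = 0.0251, edgeR), and SLC16A8, a monocarboxylate transporter, one of -0.64 (adjusted p = 0.0376, edgeR), and neither was called with the offset.

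SUCLA2, the ATP-forming partner subunit of SUCLG1, was at 36.9, 39.7 and 41.3 CPM in control samples and 46.2, 57.9 and 51.3 CPM with overexpression, and the groups did not overlap. Its log2 fold changes were 0.40 and 0.22 without and with the offset. DLD, the dihydrolipoyl dehydrogenase shared by the pyruvate and 2-oxoglutarate dehydrogenase complexes, had log2 fold changes of 0.39 and 0.18, and both genes were called either way. SUCLA2 and DLD lost their call without control replicate 1 and without control replicate 2, and SUCLA2 also without overexpression replicate 3, while PC was called in all 16 alternatives.

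The number of calls depended on single libraries. With control replicate 1, 2 or 3 left out, 5, 5 and 10 of the 41 genes were called lower and 0, 0 and 1 higher. With P4HA3 overexpression replicate 1, 2 or 3 left out, 22, 8 and 6 were called lower and 2, 0 and 0 higher. Over all genes the lower calls moved in the same direction in 5 of these 6 fits, from 1731 to 552, 371 and 1792 without control replicates 1, 2 and 3 and to 2716, 1322 and 629 without overexpression replicates 1, 2 and 3. ALDOC, ENO2, PFKFB4, IDH2 and SLC16A3 were called in each of these fits. SLC2A1, PFKL, PFKM, PFKP, PGK1, IDH1, PDHA1 and IDH3A were not called without control replicate 1 and not without control replicate 2. Without overexpression replicate 3 all of these but IDH1 lost their call, without overexpression replicate 2 SLC2A1, PFKM, PGK1, PDHA1 and IDH3A did, and without control replicate 3 PFKM, PGK1 and PDHA1 did.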

How the data were processed

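Poly-A RNA of 6 SiHa PR samples was sequenced as strand-specific paired-end libraries. According to the supplementary methods, the authors aligned reads to GRCh38 with STAR and counted them per gene with HTSeq, whereas the submitters' processing notes name HISAT2. The strand setting, the treatment of shared reads and tool versions are not given in the sources used here. The deposited values are raw counts per Ensembl gene, 1 column per sample. Totals of 21773488 to 24939948 counts per sample set the precision.

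In R 4.3.3, counts were filtered with filterByExpr (minimum count 10), normalized by TMM and tested with edgeR 4.0.16 (glmQLFit and glmQLFTest, two-sided, no covariates), adjusted over 15130 genes and called at 0.05. Standard errors are the log2 fold change over the root of F. Of the identifiers, 60463 matched GENCODE v44, a later release than the authors' annotation, which gave symbols, positions, length and GC content. The offset used smooth terms (mgcv 1.9.3) of GC content and log2 length per library. Levels of different genes are compared only as CPM per kilobase of the canonical transcript. Alternatives were DESeq2 1.42.0, limma-voom (limma 3.58.1), other size factors, other filters, a replicate block and each sample left out. Fits were tested on simulated data. The 42 genes, the pathway list and the alternatives were chosen with earlier results of these data known. The genes named are the 42, P4HA3 and, of the pathway list, the 3 largest called changes in each direction at a mean of at least 1 CPM. HIF1A, MYC, ESRRA, IDH3B, IDH3G and the markers are named besides. Some genes this rule names are not reported here.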

Additional observations from a re-analysis of the deposited data

How the results depend on the processing

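P4HA3 was called higher in all 16 alternatives. Of 655 values of the 42 genes under alternatives, 42 lost their call, 30 gained one and 27 changed sign, none of the last with an adjusted p under 0.05. Among the genes described, 2 were called higher by edgeR with TMM, and 1 with upper-quartile factors, no filter on low counts, the replicate block or the block with the offset, and 0 with the GC and length offset alone. Leaving out 1 sample gave 0 to 2 higher and 5 to 22 lower calls. For the wider pathway list (8 higher, 14 lower), 5 were higher with upper-quartile factors or library sizes only and 4 with the offset, alone or with the block, and leaving out 1 sample gave 0 to 13 higher and 3 to 22 lower. Over all genes (1416 higher, 1731 lower), 2384 were higher without a filter, 2138 with the replicate block and 2141 with the block and offset, and leaving out 1 sample gave 163 to 2814 higher and 371 to 2716 lower. The share of higher calls among all calls was 45.0%, and 57.1% with the offset. What caused these shifts in counts was not tested.

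The values that changed sign were uncalled, although PGLS was called lower in 5 other alternatives and GAPDH in 1. With the offset, alone and with the block, ALDOA was at 0.064 and 0.069, GAPDH at 0.027 and 0.026, LDHB at -0.012 and -0.014, SLC16A1 at -0.094 and -0.094, PGLS at 0.021 and 0.021, RPIA at 0.016 and 0.017, OGDH at 0.073 and 0.073, and MDH1 at -0.0034 and -0.0024. SDHA was at -0.0073 with upper-quartile factors and -0.0016 with at least 10 counts in every library, and RPIA at 0.013 with library sizes only and 0.0076 without a filter. Leaving out 1 sample put RPIA between -0.055 and 0.043, LDHB between -0.059 and 0.18 and SDHA between -0.084 and 0.066. Deviations from the group means correlated at 0.25, -0.05 and 0.03 for replicate numbers 1, 2 and 3 of the labels over 15130 genes. Overexpression replicate 2 correlated best with control replicate 3 (0.27). The deviations also followed GC content, so these values do not show whether the replicate numbers pair the samples. With the replicate block, 14 of the genes described were lower and 1 higher, against 11 and 2. Levels of ALDOA, LDHB and SDHA are limited by overlapping genes, and SLC2A3 by depth.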
